A study of Homo sapiens with 16 samples.

Results

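The aminoacyl-tRNA synthetases are the enzymes that join each amino acid to its own transfer RNA (tRNA), the step that supplies the ribosome with charged tRNA. The 37 genes described here were taken by symbol from the count table. They comprise 19 genes for enzymes of the cytosol, 16 genes for enzymes of the mitochondrion, and AIMP1 and AIMP2, which encode scaffold subunits of the multisynthetase complex. The table holds 62703 genes, of which 10566 passed the filter on low counts, including 35 of the 37. The genes that did not pass were SARS2 and VARS2, the mitochondrial seryl and valyl enzymes.

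Human cells keep a cytosolic and a mitochondrial set of these enzymes, and the mitochondrial ones are encoded in the nucleus, made in the cytosol and imported. For most amino acids the sets come from separate genes, by convention numbered 1 and 2, whereas GARS1 and KARS1 each encode the enzyme of both compartments. In the cytosol EPRS1, IARS1, KARS1, LARS1, MARS1, QARS1 and RARS1 belong to the multisynthetase complex, and several cytosolic synthetase genes are known targets of ATF4, the transcription factor of the amino acid response.

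LNCaP and 22Rv1, which express the androgen receptor, and PC3, which does not, are established prostate cancer cell lines, and RNA was taken from them as spheroids. MED12, a Mediator subunit, was knocked down with 25 pmol of pooled siRNA (siMED12), and control cells received non-targeting siRNA (siCtrl), with 3 days in 2D and 4 days as spheroids. All groups share the transfection and the spheroid culture, and the knockdown was transient. The question was how spheroids of each line respond to loss of MED12, and the siCtrl groups also show how the lines differ.

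Every line had 3 siCtrl libraries. siMED12 had 3 libraries for LNCaP and, for 22Rv1 and PC3, replicates 1 and 3 alone, which made 16 libraries with totals of 479118 to 993807 counts. The 37 genes took 0.230% to 0.296% of the counts of a library. The line labels were checked against marker genes: 7 genes of androgen receptor positive lines summed to 4241 to 6678 CPM (counts scaled to library size) in LNCaP, 950 to 1085 CPM in 22Rv1 and 225 to 353 CPM in PC3, and 7 PC3 markers summed to 53.4 to 163 CPM, 145 to 299 CPM and 2805 to 4040 CPM in the same order. The highest sum of PC3 markers in a 22Rv1 library, 299 CPM, was that of siMED12 replicate 3, and the PC3 library siMED12 replicate 3 held KLK3 at 58.1 CPM against 6.59 to 18.8 CPM in the other PC3 libraries. Of 9 markers of stromal and blood cells DCN and PTPRC were at 0 in all 16 libraries, and the list summed to 0 to 110 CPM, most of it COL1A1. The part of these levels in the siMED12 results was not tested. Without 22Rv1 siMED12 replicate 3 the median log2 fold change of the tested mitochondrial genes in 22Rv1 was 0.26 (0.16 with it).

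The targeted gene was measured at low counts. In LNCaP MED12 stood at 9.94, 12.9 and 11.7 CPM in siCtrl and at 6.99, 6.67 and 10.3 CPM in siMED12, which overlap, with a log2 fold change of -0.50 ± 0.46 (standard error, SE). In 22Rv1 it stood at 23.4, 16.7 and 19.2 CPM against 7.42 and 8.98 CPM, which do not overlap, with a log2 fold change of -1.28 ± 0.46. In PC3 it stood at 28.4, 8.41 and 18.8 CPM against 15.8 and 14.5 CPM, which overlap, with a log2 fold change of -0.22 ± 0.43, or 0.25 without siCtrl replicate 1. The adjusted p of the edgeR quasi-likelihood test was 0.878, 0.175 and 0.987, so MED12 itself passed the threshold of 0.05 in none of the lines. At 5 to 22 counts in a library this test can miss a real fall. By its own measurements the study describes the knockdown as highly efficient, also in spheroids.

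Promoter sequence divided the cytosolic enzymes in a way that the gene list did not use. Windows from 250 bases before to 50 bases after the gene start, from RefSeq on GRCh38.p14, were at hand for 32 of the 37 genes, and not for AARS2, LARS1, VARS1, VARS2 and YARS1. Some genes had a window for more than 1 start, and a gene was counted where any of its windows held the element. The ATF4 type element TGATGNAA, searched on both strands (TTNCATCA on the other), was found in 7 of 16 cytosolic genes (43.8%) and in 1 of 14 mitochondrial genes, YARS2 (7.14%), against 4.46% of 27305 genes with a window. The stretches that hold it are given with 11 bases on each side, on the strand of the gene and with the element in capitals. They are shown because the siMED12 results below are split by this element.

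AARS1 (chr16:70289675-70289704, minus strand): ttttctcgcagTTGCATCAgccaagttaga
CARS1 (chr11:3057407-3057436, minus strand): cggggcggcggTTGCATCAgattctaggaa
GARS1 (chr7:30594834-30594863, plus strand): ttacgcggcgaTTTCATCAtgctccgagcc
IARS1 (chr9:92293692-92293721, minus strand): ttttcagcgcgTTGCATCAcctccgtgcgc
MARS1 (chr12:57488053-57488082, plus strand): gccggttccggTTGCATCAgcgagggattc
NARS1 (chr18:57621804-57621833, minus strand): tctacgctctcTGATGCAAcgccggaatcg
TARS1 (chr5:33440956-33440985, plus strand): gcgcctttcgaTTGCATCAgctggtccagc
YARS2 (chr12:32756076-32756105, minus strand): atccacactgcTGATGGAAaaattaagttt

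The same letters, TTGCATCA or its other strand, recur in AARS1, CARS1, IARS1, MARS1, NARS1 and TARS1, with GARS1 differing in the free position of the element. The first base of the element lay within 33 bases of the gene start of its window in 6 of the 7 cytosolic genes. In AARS1 it lay 187 bases before the gene start. CARS1, GARS1 and TARS1 had windows for 2 starts each, of which 1 held the element. In TARS1 that was the start at 33440965 and not the one at 33440696. The ETS core CCGGAAGT (other strand ACTTCCGG) was found in 5 of 16 cytosolic and 3 of 14 mitochondrial genes (31.2% and 21.4%, against 4.95% of all genes with a window). The E-box CACGTG, which reads the same on both strands, was found in 1 of 16 and 3 of 14 (6.25% and 21.4%, against 8.78%). The NRF1 core GCATGCGC (other strand GCGCATGC) was found in 0 of 16 and 2 of 14 (14.3%, against 3.68%). These are matches of letters only.

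HARS1 and HARS2, the cytosolic and mitochondrial histidyl enzymes, are neighbours on chromosome 5 that are read in opposite directions from RefSeq starts 85 bases apart. In the Gencode annotation HARS1 reaches 140691537 on the minus strand and HARS2 begins at 140691430, so there the genes overlap. The 84 bases between the RefSeq starts (chr5:140691371-140691454, on the strand of HARS2) hold the ETS core on each strand, in capitals. They are shown because both genes are read outwards from these RefSeq starts.

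HARS1 and HARS2: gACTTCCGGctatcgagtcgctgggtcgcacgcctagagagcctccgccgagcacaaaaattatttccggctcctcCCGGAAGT

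In control spheroids the cytosolic enzymes were more abundant than the mitochondrial ones. Levels are CPM scaled by the trimmed mean of M values, and because 3′ sequencing counts a transcript at its end, a level does not scale with transcript length. Comparisons between genes are still limited by how well each end was counted. Ends that overlap other genes are given below, such as those of SARS2, VARS2, HARS1, HARS2, MARS1 and AIMP2. The mitochondrial medians and sums include SARS2 and VARS2. The median cytosolic gene stood at 93.2 CPM in LNCaP, 84.6 CPM in 22Rv1 and 89.9 CPM in PC3, and the median mitochondrial gene at 16.9, 18.4 and 18.5 CPM. Over the 16 libraries the cytosolic sum ran from 1683 to 2176 CPM and was 3.49 to 4.45 times the mitochondrial sum.

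**Figure D1:**
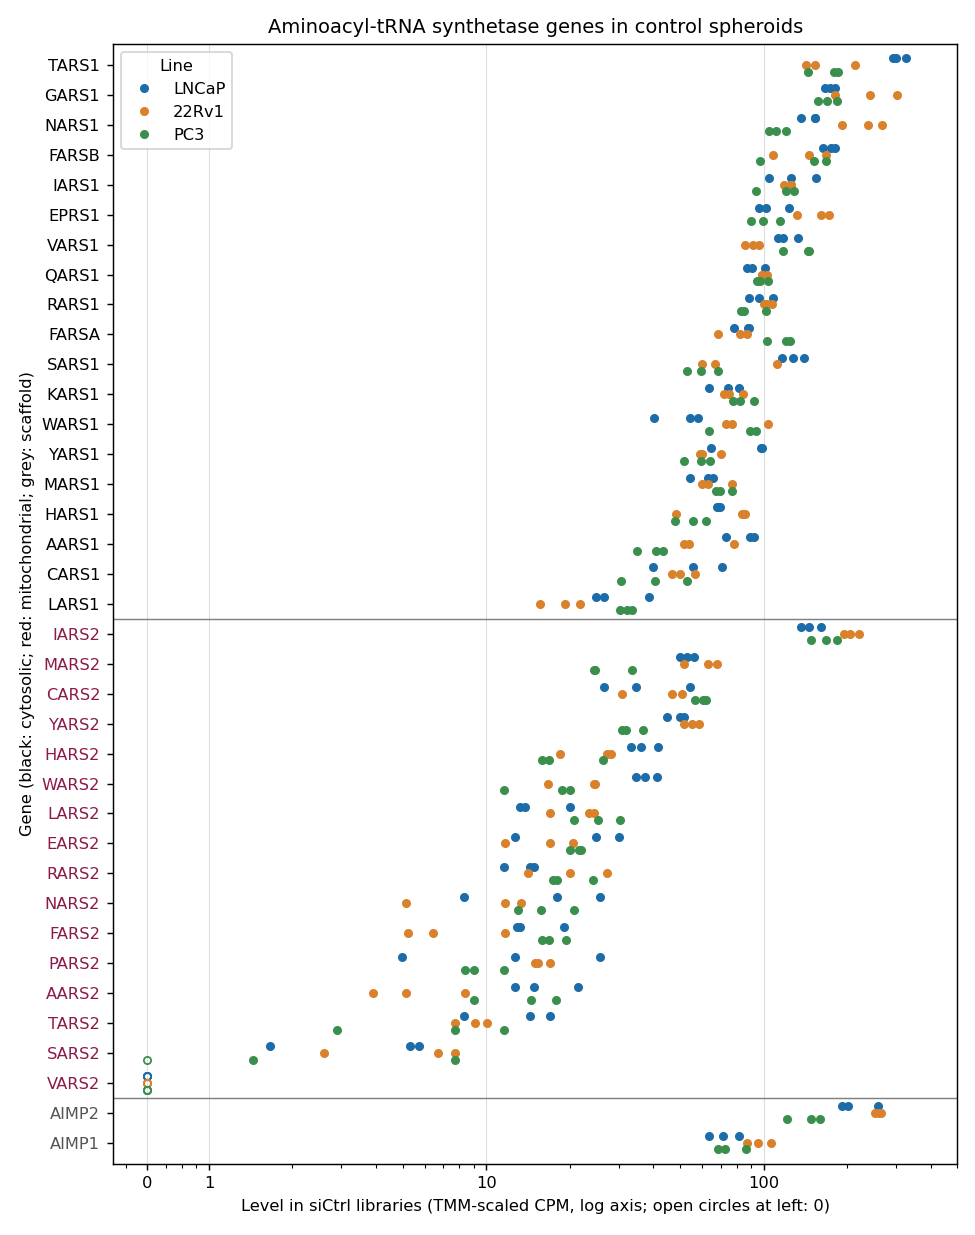
Level of each of the 37 genes in the 9 siCtrl libraries (x axis, TMM-scaled CPM on a log axis, 1 point per library, coloured by line; open circles at the left mark 0), ordered within cytosolic, mitochondrial and scaffold genes by the mean over lines. Cytosolic means run from 27.0 CPM (LARS1) to 215 CPM (TARS1), and IARS2 at 174 CPM lies far above the other mitochondrial genes.

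The 3 most abundant cytosolic enzymes were TARS1, GARS1 and NARS1, which charge threonine, glycine and asparagine. TARS1 (ENSG00000113407, chr5:33440696-33468091) stood at 299.9, 292 and 325 CPM in the LNCaP siCtrl libraries, at 142, 154 and 213 CPM in 22Rv1 and at 186, 179.8 and 144 CPM in PC3. GARS1 (ENSG00000106105, chr7:30580533-30634033) stood at 181, 166 and 174 CPM in LNCaP, 242, 181 and 303 CPM in 22Rv1 and 183, 169 and 157 CPM in PC3. NARS1 (ENSG00000134440, chr18:57600656-57622213) stood at 136, 153 and 154 CPM, 191, 237 and 267 CPM, and 104, 110.4 and 119.9 CPM in the same order. For TARS1 every LNCaP library lay above every library of the other lines, and for NARS1 every 22Rv1 library did.

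The 3 least abundant cytosolic enzymes were AARS1, CARS1 and LARS1, which charge alanine, cysteine and leucine. LARS1 was the lowest of all 19 in the mean of each line, with 24.9, 38.7 and 26.5 CPM in LNCaP, 15.6, 21.7 and 19.2 CPM in 22Rv1 and 32.3, 33.6 and 30.3 CPM in PC3. CARS1 stood at 39.8, 55.9 and 71.0 CPM in LNCaP, 46.8, 50.1 and 56.5 CPM in 22Rv1 and 52.9, 30.5 and 40.5 CPM in PC3, and the lines overlapped. AARS1 is described with the line differences.

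Among mitochondrial enzymes IARS2, the isoleucyl enzyme, stood apart. Its siCtrl levels were 161, 136 and 145 CPM in LNCaP, 206, 196 and 221 CPM in 22Rv1 and 168, 184 and 149 CPM in PC3, so it was higher than its cytosolic partner IARS1 in 2 of 3, 3 of 3 and 3 of 3 libraries. MARS2 and CARS2, the methionyl and cysteinyl enzymes, followed with means over the lines of 47.1 and 47.0 CPM. CARS2 stood at 34.8, 54.4 and 26.5 CPM in LNCaP, 50.8, 46.8 and 30.8 CPM in 22Rv1 and 60.6, 62.0 and 56.4 CPM in PC3. It was above CARS1 in all 3 PC3 libraries, in 1 of 3 in 22Rv1 and in 0 of 3 in LNCaP.

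At the low end TARS2, the threonyl enzyme, stood at 8.28, 14.3 and 17.0 CPM in LNCaP, 9.11, 10.0 and 7.70 CPM in 22Rv1 and 7.74, 11.6 and 2.89 CPM in PC3 siCtrl, with overlap. SARS2 stood at 1.66, 5.73 and 5.30 CPM, 2.603, 6.69 and 7.70 CPM, and 7.74, 0 and 1.44 CPM in the same order, from 0 to 7 counts in a library. VARS2 had 0 counts in all 16 libraries, which allows up to 3 counts in each, 3.15 to 6.22 CPM depending on the library, counting error only. In the Gencode annotation the last 500 bases of SARS2 and of VARS2 lie under exons of another gene on the same strand, ENSG00000269547 and ENSG00000288473, which also had 0 counts. The part of this overlap in the low counts was not tested.

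Cytosolic enzymes were set beside the mitochondrial enzyme whose symbol differs only in its number, in 12 pairs of which both had counts. FARSA, FARSB and EPRS1 were not paired with FARS2, EARS2 and PARS2. The cytosolic mean was higher in 11 pairs in LNCaP, 10 in 22Rv1 and 10 in PC3, with median ratios of 1.89, 3.40 and 2.85. The ratio ran from 0.872 for IARS1 to 30.3 for SARS1 in LNCaP. In 22Rv1 NARS1 was 23.0 times NARS2, and LARS1 was 0.875 times LARS2, below it in 3 of 3 libraries. MARS1 and MARS2 were close in LNCaP and 22Rv1 (ratios 1.15 and 1.10) and apart in PC3 (2.58).

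Within the cytosolic set the 7 enzymes of the multisynthetase complex had median levels of 93.2, 100.06 and 89.9 CPM in LNCaP, 22Rv1 and PC3, and the 12 outside it 104, 82.0 and 97.0 CPM. The synthetases fall into structural classes I and II. Over both compartments class I had medians of 51.9, 58.0 and 49.8 CPM and class II of 70.9, 66.9 and 47.5 CPM.

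The lines differed in many of these genes. Of the 35 tested, 12 were called between 22Rv1 and LNCaP (6 higher, 6 lower), 12 between PC3 and LNCaP (3 higher, 9 lower) and 12 between PC3 and 22Rv1 (5 higher, 7 lower), at an adjusted p under 0.05 in the edgeR quasi-likelihood test. Over all 10566 genes the shares called higher and lower were 22% and 21.2%, 29.2% and 25.5%, and 28.7% and 26.1% in the same order, so the called share of the 35 was below that of all genes in each comparison. DESeq2 called 8, 7 and 7 of the 35. The comparisons share control groups and are given side by side. In bulk libraries fewer cells of a kind and less RNA per cell cannot be told apart.

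**Figure D2:**
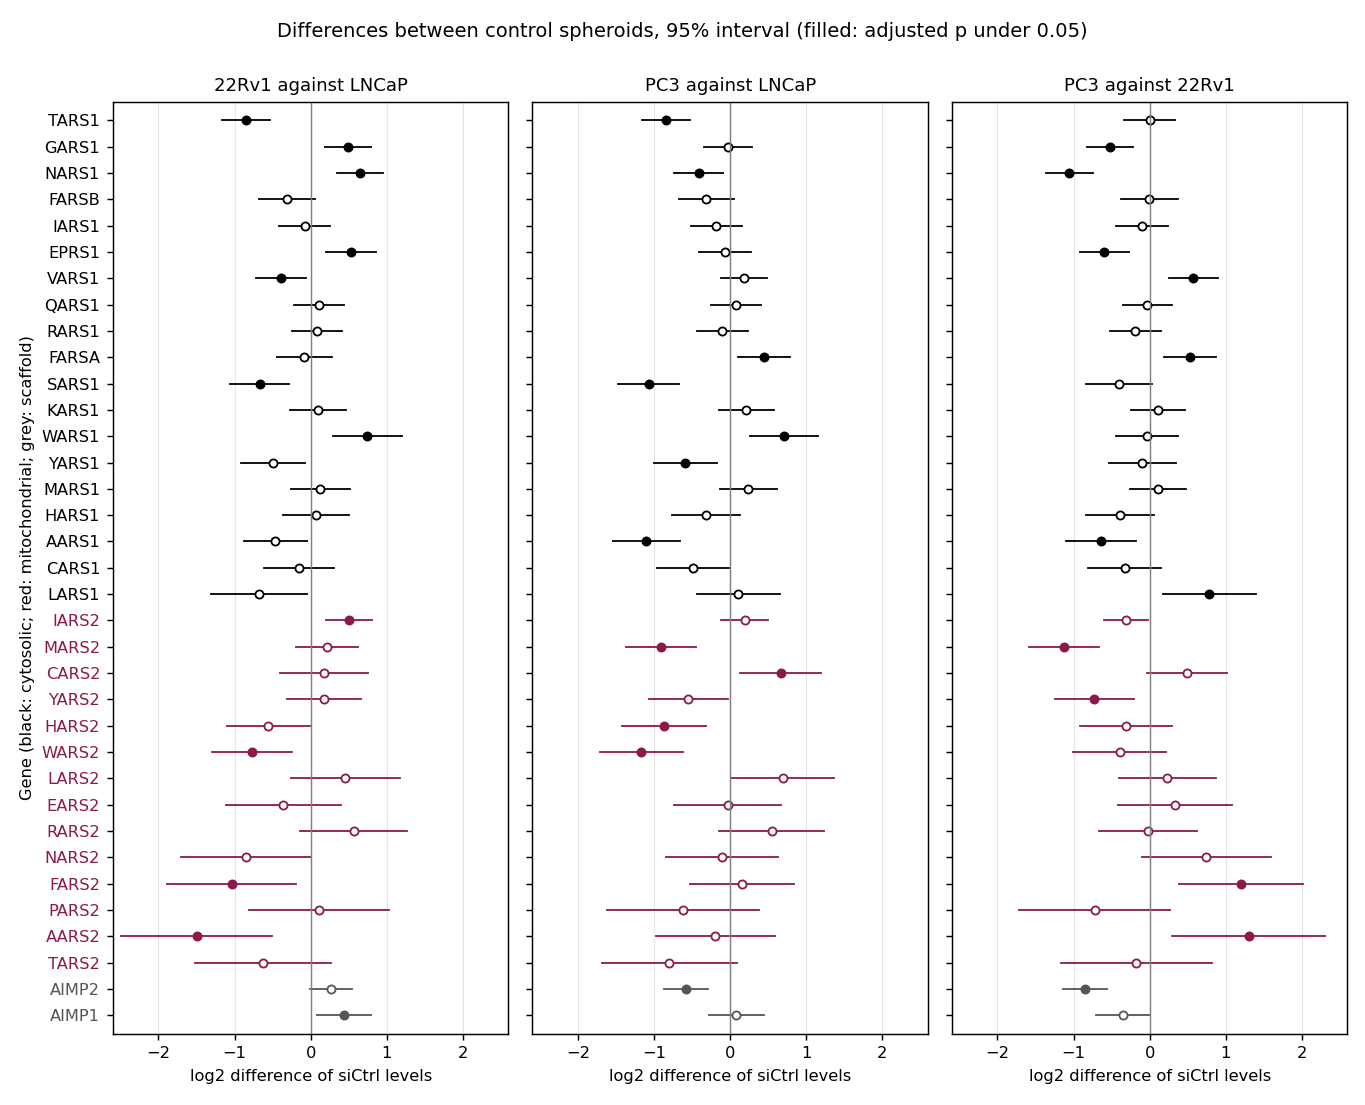
Difference of siCtrl levels between the lines for the 35 tested genes (x axis, log2; points with 95% intervals; filled where the edgeR adjusted p was under 0.05). Each panel has 12 filled points, in both directions, and the mitochondrial intervals are wider than the cytosolic ones.

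Higher in 22Rv1 than in LNCaP were EPRS1, GARS1, NARS1, WARS1, IARS2 and AIMP1, and lower were TARS1, SARS1, VARS1, AARS2, FARS2 and WARS2. The call of VARS1 (-0.39 ± 0.16, edgeR adjusted p = 0.0469) held with limma, the legacy fit and the libraries of the contrast alone, but the adjusted p was 0.0569 to 0.171 without any 1 library of either siCtrl group, 0.0603 with RLE scaling and 0.142 with DESeq2. Without 22Rv1 replicate 1 the edgeR adjusted p of SARS1 was 0.0598, and without 22Rv1 replicate 3 that of GARS1 was 0.117 and that of WARS1 0.0659. TARS1 fell by 0.85 ± 0.16 on the log2 scale (SE, edgeR adjusted p = 4.91e-05), and its 3 libraries in each line, given above, did not overlap. AARS2, the mitochondrial alanyl enzyme, stood at 14.9, 21.5 and 12.7 CPM in LNCaP and 3.90, 8.36 and 5.13 CPM in 22Rv1, a log2 difference of -1.49 ± 0.49 (edgeR adjusted p = 0.0132). The 22Rv1 libraries were all below the LNCaP libraries, at 3 to 5 counts each, and the adjusted p was 0.0769 without LNCaP replicate 2 and 0.0657 without 22Rv1 replicate 1.

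FARS2, the mitochondrial phenylalanyl enzyme, stood at 13.3, 12.9 and 19.1 CPM in LNCaP and 5.21, 11.7 and 6.42 CPM in 22Rv1, a log2 difference of -1.04 ± 0.42 (edgeR adjusted p = 0.0427). WARS2, the mitochondrial tryptophanyl enzyme, stood at 34.8, 37.2 and 41.3 CPM in LNCaP and 24.7, 16.7 and 24.4 CPM in 22Rv1, a log2 difference of -0.77 ± 0.26 (edgeR adjusted p = 0.0164). Neither overlapped between the lines. The edgeR adjusted p of FARS2 was 0.0510 and 0.225 without LNCaP replicate 1 or 3 and 0.167 and 0.133 without 22Rv1 replicate 1 or 3, and that of WARS2 was 0.0780 without LNCaP replicate 3 and 0.0728 without 22Rv1 replicate 2. The cytosolic WARS1 went the other way, from 50.7 ± 9.40 CPM to 84.6 ± 16.9 CPM (SD, n = 3 each), a log2 difference of 0.74 ± 0.22.

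Higher in PC3 than in LNCaP were WARS1, FARSA and CARS2, and lower were AARS1, SARS1, TARS1, NARS1, YARS1, HARS2, MARS2, WARS2 and AIMP2. FARSA, CARS2, NARS1 and YARS1 lost the call in several fits. The edgeR adjusted p of CARS2 was 0.0736 and 0.305 without LNCaP replicate 1 or 3 and 0.0540 and 0.0749 without PC3 replicate 1 or 2, and that of FARSA was 0.147 without LNCaP replicate 3 and 0.0576 and 0.0697 without PC3 replicate 1 or 3. For NARS1 it was 0.0819 and 0.0598 without LNCaP replicate 2 or 3 and 0.0845 and 0.0729 without PC3 replicate 1 or 2, and for YARS1 it was 0.0739 and 0.0647 without LNCaP replicate 2 or 3 and 0.0582 without PC3 replicate 1. WARS2 stood at 11.6, 19.975 and 18.8 CPM in PC3, all below LNCaP, with a log2 difference of -1.17 ± 0.27 (edgeR adjusted p = 0.000442). AARS1, the cytosolic alanyl enzyme, stood at 89.5, 73.0 and 92.2 CPM in LNCaP, 78.1, 51.8 and 53.9 CPM in 22Rv1 and 34.8, 41.0 and 43.3 CPM in PC3. The PC3 libraries were below every library of the other lines, with a log2 difference from LNCaP of -1.10 ± 0.21 (edgeR adjusted p = 5.8e-05).

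SARS1, the cytosolic seryl enzyme, stood at 128, 140.35 and 117 CPM in LNCaP, 59.9, 66.9 and 112 CPM in 22Rv1 and 52.9, 68.3 and 59.2 CPM in PC3. Its log2 difference of PC3 from LNCaP was -1.07 ± 0.20 (edgeR adjusted p = 2.5e-05), and all LNCaP libraries were above those of the other lines. MARS2 stood at 56.3, 53.0 and 49.8 CPM in LNCaP, 67.7, 51.8 and 62.9 CPM in 22Rv1 and 24.5, 33.6 and 24.6 CPM in PC3, lower in PC3 than in LNCaP by a log2 difference of -0.91 ± 0.23 (edgeR adjusted p = 0.00114) and lower than in 22Rv1 by -1.13 ± 0.22 (adjusted p = 7.52e-05). PC3 was below both other lines in every library.

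Higher in PC3 than in 22Rv1 were FARSA, VARS1, LARS1, AARS2 and FARS2, and lower were AARS1, EPRS1, GARS1, NARS1, MARS2, YARS2 and AIMP2. The edgeR adjusted p of AARS1 was 0.169 without 22Rv1 replicate 1 and 0.0510 without PC3 replicate 1, and that of LARS1 was 0.112 and 0.0730 without 22Rv1 replicate 1 or 3 and 0.0587 and 0.0848 without PC3 replicate 1 or 2. NARS1, with its libraries given above, differed by -1.06 ± 0.15 on the log2 scale (edgeR adjusted p = 5.56e-07), without overlap. AARS2 stood at 9.03, 17.9 and 14.4 CPM in PC3, above the 22Rv1 libraries, with a log2 difference of 1.30 ± 0.49 (edgeR adjusted p = 0.0261). FARS2 stood at 19.4, 16.8 and 15.9 CPM, also above them, with 1.20 ± 0.40 (edgeR adjusted p = 0.0119). The edgeR adjusted p of AARS2 was over the threshold without 22Rv1 replicate 1 or 3 (0.108 and 0.0854) or PC3 replicate 2 or 3 (0.15 and 0.0518), and that of FARS2 without 22Rv1 replicate 1 or 3 (0.0697 and 0.0604).

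The histidyl pair showed different patterns over the lines. HARS1 stood at 69.6, 68.7 and 67.8 CPM in LNCaP, 48.15, 83.6 and 86.0 CPM in 22Rv1 and 47.7, 55.7 and 62.1 CPM in PC3, and passed the test in none of the 3 comparisons (edgeR adjusted p 0.827, 0.223 and 0.134), though PC3 against 22Rv1 gave 0.0160 without 22Rv1 replicate 1. HARS2 stood at 33.1, 41.5 and 36.0 CPM, 27.3, 18.4 and 28.2 CPM, and 16.8, 26.3 and 15.9 CPM, and was lower in PC3 than in LNCaP by -0.87 ± 0.27 (edgeR adjusted p = 0.00728). Reads of HARS2 may be shared with ZMAT2, whose exons overlap its end on the same strand and which had 342 counts in all, and reads of HARS1 with DND1, which had 11. Exons of WDR55 (307 counts in all) overlap the end of HARS1 (795 counts in all) on the opposite strand.

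AIMP2 and AIMP1 hold the multisynthetase complex together. AIMP2 stood at 258, 202 and 192 CPM in LNCaP, 265, 261 and 251 CPM in 22Rv1 and 121, 159.8 and 149 CPM in PC3, below both other lines in every PC3 library. The log2 difference of PC3 was -0.58 ± 0.14 from LNCaP and -0.85 ± 0.14 from 22Rv1 (edgeR adjusted p 0.000844 and 5.6e-06). AIMP1 stood at 81.2, 71.6 and 63.6 CPM, 107, 95.3 and 87.3 CPM, and 68.4, 72.5 and 86.7 CPM, and was called higher in 22Rv1 than in LNCaP only (0.44 ± 0.17, edgeR adjusted p = 0.0427). Without LNCaP replicate 2 or 3 or 22Rv1 replicate 1 or 2 that adjusted p was 0.0726, 0.191, 0.160 and 0.0675. For PC3 against 22Rv1 AIMP1 reached 0.0353 without 22Rv1 replicate 3 and 0.0444 without PC3 replicate 3, and for 22Rv1 against LNCaP AIMP2 reached 0.0238 without LNCaP replicate 1. Exons of EIF2AK1 (1813 counts in all) overlap the end of AIMP2 on the opposite strand, and whether counting used strand is not stated.

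After siMED12 none of the 35 tested genes passed the test in LNCaP, 22Rv1 or PC3, nor in the mean of the 3 effects. The shares called among all 10566 genes were 0.416%, 1.84%, 0% and 0.265% in the same order. At an unadjusted p under 0.05 the edgeR test gave 1, 3, 0 and 3 of the 35, against 7.34%, 11.7%, 4.99% and 8.52% of all genes, and DESeq2 and limma also called 0 of the 35 after adjustment in each of these contrasts.

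**Figure D3:**
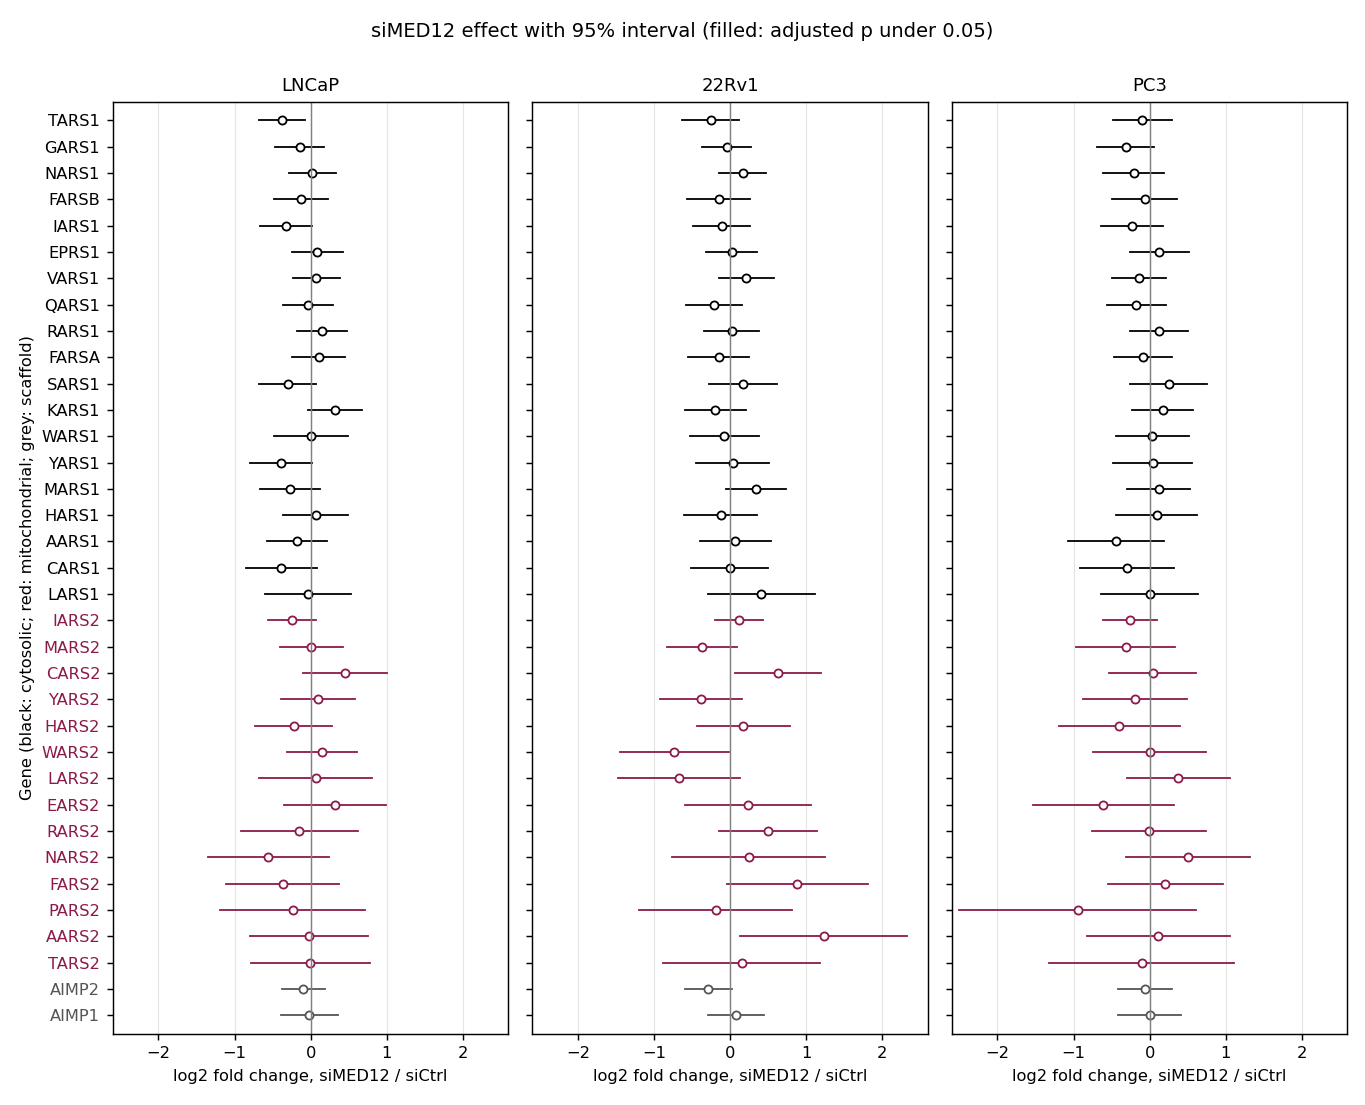
log2 fold change of siMED12 against siCtrl in each line for the 35 tested genes (points with 95% intervals; a filled point would mark an edgeR adjusted p under 0.05). All points are open, and most cytosolic intervals are narrower than the mitochondrial ones. AARS2 in 22Rv1 has the highest estimate at 1.23, with 3 to 5 counts in its siCtrl libraries.

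How large a change could have gone unseen differed between the compartments. In the mean over the lines the 95% interval of each gene lay within 1.5-fold of no change for 19 of 19 cytosolic, 9 of 14 mitochondrial and both scaffold genes. In single lines this held for 16 of 35 genes in LNCaP, 15 in 22Rv1 and 13 in PC3, and within 2-fold for 32, 24 and 27. The median SE of a cytosolic gene was 0.17, 0.20 and 0.20 on the log2 scale in LNCaP, 22Rv1 and PC3, and that of a mitochondrial gene 0.35, 0.37 and 0.37.

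The median log2 fold change of the cytosolic genes was -0.037 in LNCaP, -0.0059 in 22Rv1 and -0.066 in PC3, and that of the mitochondrial genes -0.014, 0.16 and -0.056. The median over all tested genes was -0.0038, 0.0061 and -0.038. In LNCaP 11 of 19 cytosolic genes had a negative and 8 a positive estimate, in 22Rv1 10 and 9, and in PC3 11 and 8. Groups did not overlap for 5 genes in LNCaP, 10 in 22Rv1 and 4 in PC3, against 12.6%, 26.6% and 20.7% of all genes. In LNCaP these were KARS1, higher, and GARS1, MARS1, SARS1 and TARS1, lower. In 22Rv1 AARS2, CARS2, FARS2, MARS1 and VARS1 were higher and AIMP2, LARS2, QARS1, WARS2 and YARS2 lower, and in PC3 KARS1 was higher and EARS2, GARS1 and IARS2 lower. MARS1 was thus on opposite sides in LNCaP and 22Rv1. In LNCaP all 5 genes without overlap were cytosolic, and in 22Rv1 6 of 10 were mitochondrial. Lack of overlap was about as common or more common among all genes, and its split by compartment or line was not tested.

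The smallest p in LNCaP was that of TARS1, which stood at 273, 187 and 249 CPM after siMED12 against 299.9, 292 and 325 CPM in siCtrl. The groups did not overlap, with -0.37 ± 0.15 on the log2 scale (edgeR adjusted p = 0.542). YARS1, the cytosolic tyrosyl enzyme, stood at 88.1, 61.4 and 55.2 CPM against 64.6, 98.8 and 97.5 CPM, with overlap, and a log2 fold change of -0.38 ± 0.20 (edgeR adjusted p = 0.715). IARS1, the cytosolic isoleucyl enzyme, stood at 109, 98.7 and 105 CPM against 126, 105 and 155 CPM, with overlap, and a log2 fold change of -0.32 ± 0.17 (edgeR adjusted p = 0.724).

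In 22Rv1 the smallest p were those of mitochondrial enzymes. AARS2 stood at 14.8 and 11.5 CPM against 3.90, 8.36 and 5.13 CPM, 1.23 ± 0.54 on the log2 scale (edgeR adjusted p = 0.336). These siCtrl libraries held 3 to 5 counts of AARS2 and also entered its differences from LNCaP and PC3 given above. CARS2 stood at 77.4 and 52.6 CPM against 50.8, 46.8 and 30.8 CPM, 0.63 ± 0.28 (edgeR adjusted p = 0.336). WARS2 stood at 11.7 and 15.4 CPM against 24.7, 16.7 and 24.4 CPM, -0.73 ± 0.35 (edgeR adjusted p = 0.404). The siMED12 and siCtrl libraries of these 3 genes did not overlap, as for 26.6% of all genes in 22Rv1.

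In PC3 GARS1 stood at 146 and 124 CPM against 183, 169 and 157 CPM, -0.31 ± 0.18 on the log2 scale (edgeR adjusted p = 0.974). IARS2 stood at 145 and 135 CPM against 168, 184 and 149 CPM, -0.25 ± 0.17 (edgeR adjusted p = 0.975). AARS1 stood at 23.7 and 37.3 CPM against 34.8, 41.0 and 43.3 CPM, -0.44 ± 0.31 (edgeR adjusted p = 0.975). GARS1 and IARS2 were lower in both siMED12 libraries than in every siCtrl library, while AARS1 overlapped.

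**Figure D4:**
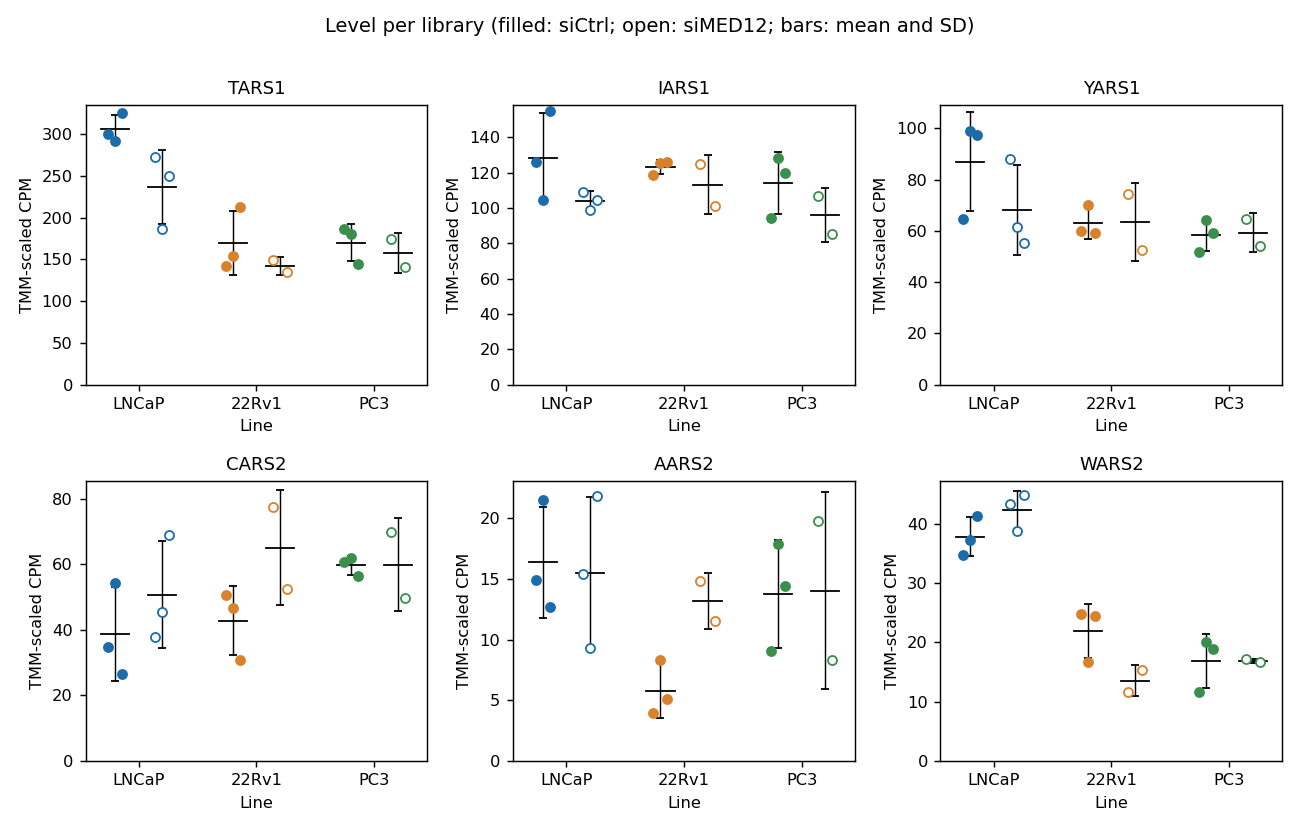
Level per library (y axis, TMM-scaled CPM from 0) of 6 genes in each line, with siCtrl filled and siMED12 open, and bars for the mean and SD. TARS1 in LNCaP and AARS2, CARS2 and WARS2 in 22Rv1 show no overlap of siCtrl and siMED12, and no gene passed the adjusted threshold.

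In the mean over the lines the smallest p belonged to TARS1, CARS2 and IARS1. TARS1 had a mean log2 fold change of -0.24 ± 0.10 (edgeR adjusted p = 0.480), with siMED12 means of 236, 142 and 158 CPM against 306, 169.5 and 170.01 CPM in LNCaP, 22Rv1 and PC3. CARS2 had 0.37 ± 0.16 (edgeR adjusted p = 0.494), with 50.7, 65.0 and 59.8 CPM against 38.6, 42.8 and 59.7 CPM. IARS1 had -0.22 ± 0.11 (edgeR adjusted p = 0.575), with 104, 113 and 95.9 CPM against 128, 123 and 114 CPM. All 3 lines had the sign of the mean in each of these genes, and the smallest effect was that of CARS2 in PC3, 0.039.

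For the histidyl pair and the scaffolds the effects were small against their error. On the log2 scale, in the order LNCaP, 22Rv1, PC3, siMED12 minus siCtrl was 0.064 ± 0.21, -0.13 ± 0.23 and 0.090 ± 0.26 for HARS1. For HARS2 it was -0.22 ± 0.25, 0.18 ± 0.30 and -0.40 ± 0.39. AIMP1 had -0.015 ± 0.18, 0.078 ± 0.18 and 0.0025 ± 0.20, and AIMP2 had -0.094 ± 0.14, -0.29 ± 0.15 and -0.062 ± 0.17. In 22Rv1 AIMP2 stood at 218 and 206.5 CPM after siMED12 against 265, 261 and 251 CPM, without overlap (edgeR adjusted p = 0.471).

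The effects were then compared between lines. None of the 35 genes passed for 22Rv1 against LNCaP, PC3 against LNCaP or PC3 against 22Rv1, where 0.189%, 0.0284% and 0.0946% of all genes did in the edgeR test, and DESeq2 and limma also called 0 of the 35. Unadjusted, 3, 0 and 1 genes were under 0.05, against 8.28%, 5.02% and 9.16% of all genes. They were MARS1, FARS2 and WARS2 between 22Rv1 and LNCaP, and LARS2 between PC3 and 22Rv1, named after their values were seen.

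Split by the ATF4 type element, the 7 cytosolic genes that hold it had a median log2 fold change of -0.27 in LNCaP, with 6 of 7 negative, and the 9 cytosolic genes with a window and no element had 0.064, with 3 of 9 negative. In PC3 the medians were -0.23, with 6 of 7 negative, and 0.090, with 3 of 9 negative. In 22Rv1 they were -0.0059, with 4 of 7 negative, and -0.13, with 6 of 9 negative. In the mean over the lines they were -0.18 and 0.0097. None of these genes was called, the SE of the 7 single genes in LNCaP was 0.15 to 0.23, and the split was not tested.

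**Figure D5:**
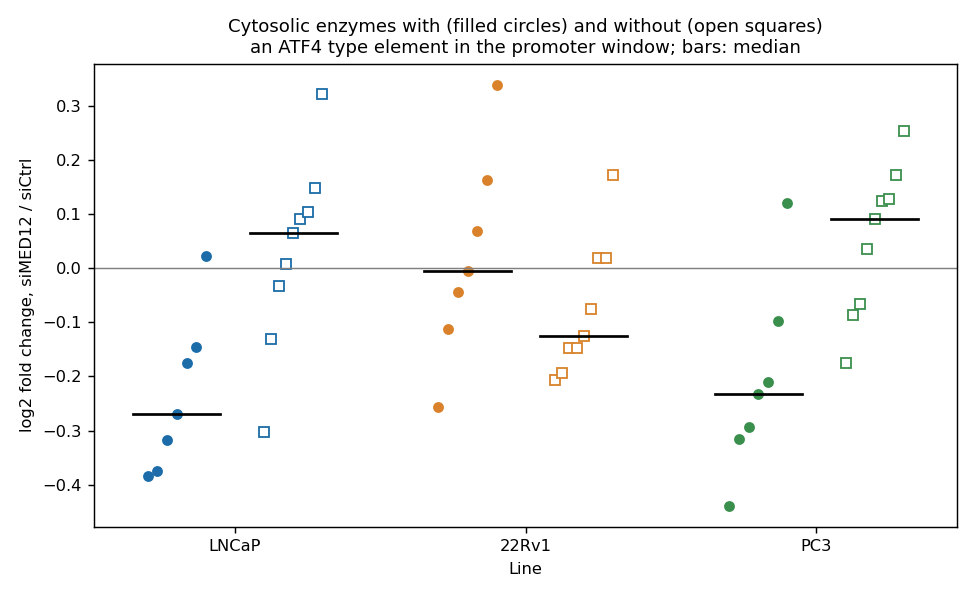
log2 fold change of siMED12 against siCtrl in each line for the 7 cytosolic genes with an ATF4 type element in the promoter window (filled circles) and the 9 with a window and no element (open squares), 1 point per gene, with bars for the medians. The filled circles lie lower in LNCaP and PC3, with medians of -0.27 and -0.23, and in 22Rv1 the filled circles run from -0.26 to 0.34 and the open squares from -0.21 to 0.17.

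The highest value among the 7 in LNCaP was NARS1 at 0.022, and the highest in PC3 was MARS1 at 0.12. In 22Rv1 MARS1 was also the highest, at 0.34 ± 0.19. The end of MARS1 overlaps exons of DDIT3 on the opposite strand, and DDIT3 had 673 counts in all against 807 for MARS1. Leaving out 1 library moved the medians of the 7 most in LNCaP without siCtrl replicate 3 (-0.14), in PC3 without siMED12 replicate 1 (-0.13), and in 22Rv1 without siMED12 replicate 1 (-0.087) or siCtrl replicate 3 (0.070). The medians of the 9 turned negative in LNCaP without siMED12 replicate 3 (-0.041) and in PC3 without siMED12 replicate 3 (-0.054), and positive in 22Rv1 without siCtrl replicate 3 (0.0089) or siMED12 replicate 3 (0.0021).

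Genes of the wider ATF4 response gave the following counts. Of 32 listed genes that are not synthetases, 28 were tested. In LNCaP 0 rose and 3 fell in the edgeR test, in 22Rv1 0 and 1, in PC3 0 and 0, and in the mean 0 and 2, against 0.416%, 1.84%, 0% and 0.265% of all genes called in either direction. The median log2 fold change was -0.24, -0.21, -0.017 and -0.13, with 24, 21, 15 and 20 of 28 negative, and over all tested genes it was -0.0038, 0.0061, -0.038 and -0.012. The 3 that fell in LNCaP were ATF3 (-1.69 ± 0.27, edgeR adjusted p = 0.000869), DDIT4 (-1.21 ± 0.24, adjusted p = 0.0113) and DDIT3 (-1.32 ± 0.29, adjusted p = 0.0259), which encode a transcription factor of stress responses, an inhibitor of mTORC1 signalling and the factor CHOP. DDIT4 was the gene that fell in 22Rv1 (-1.82 ± 0.31, edgeR adjusted p = 0.000578), and DDIT4 and ATF3 fell in the mean. ATF4 itself had -0.29 ± 0.15 in LNCaP (edgeR adjusted p = 0.685). Without siCtrl replicate 3 the median in 22Rv1 was -0.026, without siMED12 replicate 1 it was -0.088, and without siCtrl replicate 1 the median in PC3 was 0.038.

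Other genes of tRNA charging were listed as well, 13 in all, of which 11 were tested and 0 were called for siMED12 in any line or in the mean. The smallest p of the list for siMED12 in the mean over the lines was that of GATB, a subunit of the mitochondrial amidotransferase that makes glutaminyl-tRNA from the product of EARS2. GATB had 15.2 ± 1.18, 19.6 ± 5.32 and 18.0 ± 5.59 CPM in siCtrl and 10.1 ± 3.60, 9.68 ± 2.81 and 11.1 ± 1.06 CPM in siMED12 of LNCaP, 22Rv1 and PC3, a mean log2 fold change of -0.76 ± 0.24 (edgeR adjusted p = 0.264). In LNCaP TRNT1, which adds the CCA end to tRNA, had a log2 fold change of 0.70 ± 0.28 (edgeR adjusted p = 0.528).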

How the data were processed

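The authors sequenced 3′ tags of total RNA by BRB-seq and aligned and counted them with STARsolo on a Gencode annotation of GRCh38.p13. They deposited raw counts per gene and log2 CPM values. Recomputing the deposited log2 CPM from the counts with edgeR (prior count 2) gave the same values to within 4.97e-14. Whether molecular identifiers were collapsed is not given in the sources used here.

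All tests used the deposited counts in R 4.3.3 with edgeR 4.0.16: filterByExpr (minimum count 10, minimum total 15), TMM scaling, 1 fit of 6 group means over the 16 libraries, the 2-sided quasi-likelihood test (non-legacy fit) and Benjamini-Hochberg adjustment over 10566 genes, at a threshold of 0.05. An SE is the size of the log2 fold change divided by the square root of its F statistic. The script was tested on simulated data. Kept genes held 97.9% to 98.6% of the counts. Intervals are 95% and cover single genes.

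The members and lists were chosen with earlier results of these data known. Genes given with their values were taken by a rule: members called for siMED12, the 3 smallest p of each siMED12 contrast, the 4 largest called differences between lines, the 3 highest and 3 lowest of each compartment, HARS1, HARS2, AIMP1, AIMP2 and MED12. Groups came from the sample titles. The study's methods describe its experiments in general as biological replicates, and the labels do not say which of these libraries came from separate cultures, so p-values measure the spread between these libraries, which may be technical in part. Within groups no library was a copy of another: over the 14 replicate pairs the variance of counts was 1.60 to 3.43 times that of sampling alone. Alternatives were RLE scaling, no filter, DESeq2 1.42.0, limma 3.58.1 on the deposited log2 CPM, single contrasts, a replicate block, leaving out each library and, added after the data were seen, the legacy fit and the list of calls between lines that changed.

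Gene positions come from the Gencode annotation of GRCh38, matched by identifier, and promoter windows from RefSeq (GRCh38.p14), matched by symbol. Exons of other genes were searched over the last 500 bases of each member.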

Additional observations from a re-analysis of the deposited data

How the results depend on the processing

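The count of 0 synthetase genes called for siMED12, and for the differences between those effects, was the same under every alternative run. Of the 12 genes called in each comparison of lines, DESeq2 called 8, 7 and 7 (22Rv1 against LNCaP, PC3 against LNCaP, PC3 against 22Rv1), and leaving out 1 library gave 8 to 13, 8 to 12 and 10 to 12. The cause was not tested. Median log2 fold changes for siMED12, leaving out 1 library, ran in LNCaP from -0.107 to -0.0395 (cytosolic) and -0.112 to 0.0945 (mitochondrial), in 22Rv1 from -0.0926 to 0.0311 (cytosolic) and -0.0650 to 0.261 (mitochondrial), and in PC3 from -0.0978 to 0.0403 and -0.159 to 0.121. For differences between lines they ran from -0.0821 to 0.0351 and -0.226 to 0.0897 (22Rv1 against LNCaP), -0.207 to -0.0594 and -0.429 to 0.0571 (PC3 against LNCaP), and -0.204 to -0.0870 and -0.324 to 0.0730 (PC3 against 22Rv1). The mitochondrial median of 22Rv1 against LNCaP was 0.165 with only the libraries of that contrast. The cytosolic medians for siMED12 in LNCaP and for PC3 against LNCaP and against 22Rv1 stayed negative when 1 library was left out. All the other medians changed sign. With 2 or 3 libraries, and low counts for the mitochondrial genes, the signs of those other medians are not fixed.

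Same-numbered siCtrl and siMED12 libraries of a line deviated together in 6 of 7 pairs (correlation over 0.1; range 0.0787 to 0.253). The 14 pairs of unlike number gave -0.253 to 0.0920, and each siMED12 library correlated best with its own number. Deviations were taken from the group mean, so the 2 siMED12 libraries of 22Rv1, and those of PC3, deviate as exact opposites. Their correlations mirror each other, as 0.19 and -0.19 with 22Rv1 siCtrl replicate 1. The pairs are therefore not independent, and the pattern is at most a hint from the data. With the replicate block 0 genes were called for siMED12 and 9, 13 and 12 between lines, the PC3 siMED12 medians became 0.0334 (cytosolic) and 0.103 (mitochondrial), the mitochondrial median of 22Rv1 against LNCaP became 0.154, and AIMP1 and AIMP2 in PC3 became -0.0165 and 0.0462. AIMP1 in PC3 was -0.00623 with limma.

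Signs also turned on leaving out 1 library for MED12 in PC3 (-0.631 to 0.252), HARS1 (LNCaP -0.0764 to 0.224, 22Rv1 -0.365 to 0.0311, PC3 -0.133 to 0.355, 22Rv1 against LNCaP -0.0821 to 0.309), HARS2 in 22Rv1 (-0.134 to 0.387), AIMP1 (LNCaP -0.108 to 0.0877, 22Rv1 -0.0576 to 0.180, PC3 -0.0590 to 0.0952, PC3 against LNCaP -0.0547 to 0.175) and AIMP2 (LNCaP -0.181 to 0.0576, PC3 -0.166 to 0.0335), none of them called in any of those fits. Calls between lines that some single-library fit lost are given with each comparison. DESeq2 did not call AIMP1, FARS2, VARS1 and WARS2 in 22Rv1 against LNCaP, CARS2, FARSA, HARS2, NARS1 and YARS1 in PC3 against LNCaP, or AARS1, AARS2, FARS2, LARS1 and YARS2 in PC3 against 22Rv1. Without the expression filter AIMP1, FARS2, VARS1 and WARS2 missed the threshold in 22Rv1 against LNCaP and FARSA and NARS1 in PC3 against LNCaP. With the replicate block AIMP1, FARS2 and VARS1 missed it in 22Rv1 against LNCaP, as did AIMP1 with only the libraries of that contrast, where AARS2 and FARS2 were not tested.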
